A study of Mus musculus with 6 samples.

Results

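The genes described here carry glucose through glycolysis to pyruvate and decide what becomes of it: glucose and lactate carriers, the glycolytic enzymes, lactate dehydrogenase, the mitochondrial pyruvate carrier, and the pyruvate dehydrogenase complex with its regulators. They were chosen by gene name, with no cut on measured values, but with earlier results of these data known. All 36 were among the 16415 genes listed in the table, and all 36 passed the filter on low values, which kept 16387 genes. Messenger RNA was sequenced in bulk from trigeminal ganglion of mice, the sensory ganglion of the face and head. The labels give every library a wild-type genotype and set 3 libraries treated with "NC-up" beside 3 treated with "SETDB2-up", and they name no age, strain, dose, vector, delivery route or interval. The series title places SETDB2, KLF4, IDE and CGRP in an axis of sensory neurons in migraine, so the comparison asks what differs in the ganglion between the SETDB2-up and NC-up treatments. Nothing in the labels says that the libraries of a group came from separate animals. Each p-value therefore sets a difference against a spread between libraries that may be technical. In limma that spread is drawn partly from the other genes.

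Glycolysis splits glucose into triose phosphates at a cost of ATP, then recovers ATP and NADH as the triose phosphates become pyruvate. Lactate dehydrogenase exchanges pyruvate with lactate in the cytosol, while the mitochondrial pyruvate carrier and the pyruvate dehydrogenase complex deliver it to the tricarboxylic acid cycle as acetyl-CoA. Neurons and the glia around them are known for different isozymes and carriers at several of these steps, and lactate can pass between the cells through monocarboxylate transporters. In bulk tissue, fewer cells of a type and less RNA per cell cannot be told apart.

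The values are read counts that the authors divided by one factor per library, here called normalised reads. The underlying reads summed to between 19334997 and 23501386 per library, and 3 reads correspond to 0.128 to 0.155 CPM (counts scaled to a common library total). Setdb2 itself had between 58.4 and 71.5 normalised reads in NC-up and between 97.6 and 113 in SETDB2-up, which goes with the labels. Its log2 difference was 0.65 ± 0.19 (SE, limma adjusted p 0.0253), and it passed in 10 of 17 alternative settings. After correction for transcript GC content the difference was 0.48 and did not pass (limma adjusted p 0.160). All 16 listed sensory neuron markers were in the table, with summed values of 478387 to 504118 normalised reads across the 6 libraries. Transcripts of liver stood apart in 2 libraries: the liver list summed to 95.8 to 119 in NC-up, against 3444, 8032 and 161 in SETDB2-up libraries 1, 2 and 3. In limma 8.71% of all genes fell and 7.71% rose. Beside that, 6 of 10 fibroblast markers fell and 1 rose, 4 of 10 myelinating Schwann cell markers fell and 0 rose, 5 of 7 tested keratinocyte markers fell and 0 rose (median -1.15), and 2 of 10 endothelial markers fell and 0 rose. For these lists the lower counts after GC correction were 5, 0, 2 and 0. Of 16 sensory neuron markers 3 rose and 2 fell, and 4 and 2 after GC correction. Of 10 satellite glia markers 1 rose and 1 fell, before and after the correction. Of 10 macrophage markers 1 fell and 0 rose, and of 8 erythroid markers 1 fell and 0 rose. Of 14 tested liver markers 13 rose, and 11 after GC correction. What part these cell type markers have in the values of the glycolytic genes was not tested. For the genes that passed, the value without SETDB2-up libraries 1 and 2 is given where it ends the call or moves by more than 1.5 times.

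Of the 36 genes, 9 passed the test (limma on log2(value + 1), adjusted p under 0.05 over all genes), against 16.4% of all genes tested. Gapdh, Pgk1, Pgam1, Pdha1, Dld and Slc16a7 rose, which is 6 of 36 against 7.71% of all genes, and Eno3, Aldoa and Mpc2 fell, which is 3 of 36 against 8.71%. With 1 exception the changes were small. Eno3, muscle enolase, fell to under 0.5 times its NC-up level, and the other 8 changed by 0.18 to 0.47 on the log2 scale. The median log2 fold change of the 36 genes was 0.05, beside 0.00 over all genes, and 23 of 36 were above 0, beside 8199 of 16387 genes. Their median size of change, 0.11, was under that of all genes, 0.17, and their median standard error was 0.06 against 0.10. The values of the 2 groups did not overlap for 13 of the 36 genes, 10 of them higher and 3 lower in SETDB2-up, against 33.3% of all genes (16.8% higher and 16.4% lower). Together the 36 genes held 1.16%, 1.16% and 1.19% of all normalised reads in NC-up libraries 1 to 3 and 1.19%, 1.15% and 1.26% in SETDB2-up libraries 1 to 3. SETDB2-up library 3 was the highest of the 6 libraries for 19 of the 36 genes, against 14.4% of all genes, and the lowest for 0 of them, against 13.4%. NC-up library 1 was the lowest for 14 of the 36, against 18.8% of all genes.

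**Figure D1:**
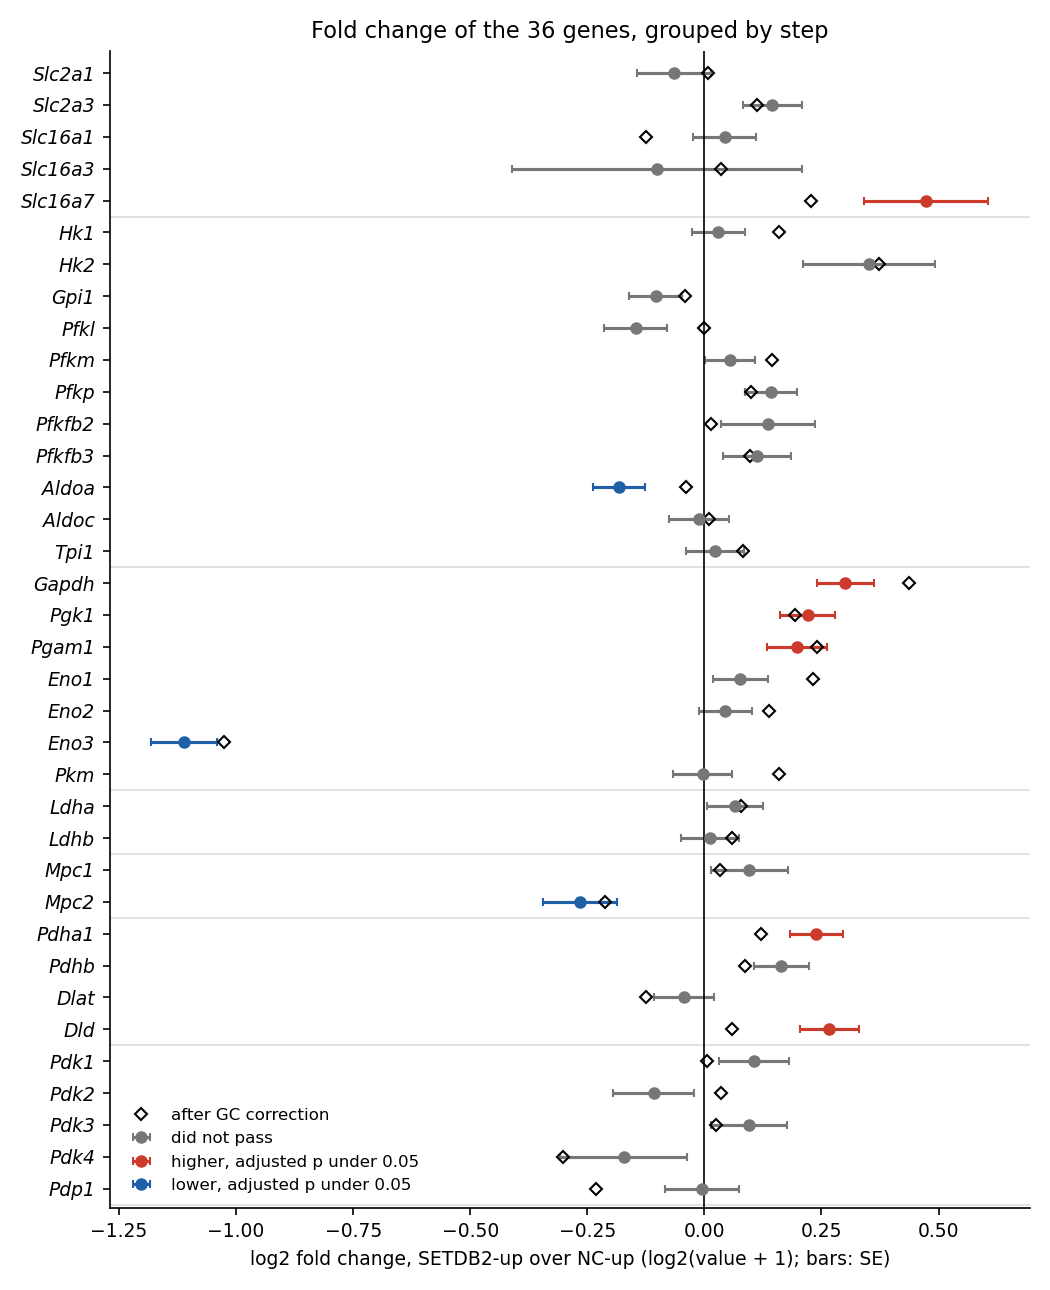
Log2 fold change of each of the 36 genes (SETDB2-up over NC-up, log2(value + 1), bars are standard errors), grouped by step from transport at the top to the pyruvate dehydrogenase kinases and phosphatase at the bottom. Filled points are coloured by the test and open diamonds give the value after correction for transcript GC content. Eno3 lies at -1.11, far to the left of the other genes, which lie between -0.27 and 0.47.

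Fold changes in this series followed the base composition of the transcripts. In the lowest decile of transcript GC content 438 genes rose while 16 fell, and in the highest decile 4 rose while 564 fell. The 36 genes span 37.7% to 57.7% GC, with a median of 51.9% beside 50.3% over all genes. Of the 15 members under 50% GC, 12 had a log2 fold change above 0, with a median of 0.14, and 4 rose (Slc16a7, Dld, Pdha1 and Pgk1) while 0 fell. Of the 21 at 50% or more, 11 were above 0, with a median of 0.01, and Gapdh and Pgam1 rose while Eno3, Aldoa and Mpc2 fell. After each library was corrected for transcript GC content, 4 of the 36 genes were higher (Gapdh, Pgk1, Pgam1 and Eno1, against 1.79% of 15512 genes) and 1 was lower (Eno3, against 3.58%). All 5 act between glyceraldehyde 3-phosphate and phosphoenolpyruvate, a grouping read from the calls themselves. Eno1 and Eno3 act at the same step and moved in opposite directions. Eno2, also of that step, did not pass after the correction (0.14, limma adjusted p 0.0943). Over all genes 5.37% passed after this correction. Without SETDB2-up libraries 1 and 2, which leaves a single SETDB2-up library, 3 of the 36 genes were higher (Gapdh, Pgk1 and Pgam1, against 0.891% of all genes) and 1 was lower (Eno3, against 1.84%), where 2.73% of all genes passed. Several genes that did not pass were further above 0 there, among them Eno1 (0.19 in place of 0.08), Ldha (0.19 in place of 0.07), Mpc1 (0.17 in place of 0.10), Tpi1 (0.15 in place of 0.02), Eno2 (0.13 in place of 0.04) and Ldhb (0.12 in place of 0.01). Pfkl, below 0 in both fits, also moved up, from -0.15 to -0.04. Among genes that moved down were Pfkfb2 (from 0.14 to -0.04) and Pdk3 (from 0.10 to -0.04). With the replicate number as a block Pdhb and Pfkp joined the 9, which makes 8 higher and 3 lower, against 10.3% and 11.7% of all genes and 22.1% in either direction. With the block and the GC correction together 9 were higher and 2 lower, against 4.61% and 6.18% of all genes and 10.8% in either direction. Whether the GC trend is of the libraries or of the tissue was not tested, so both values are given for each gene that passed.

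**Figure D2:**
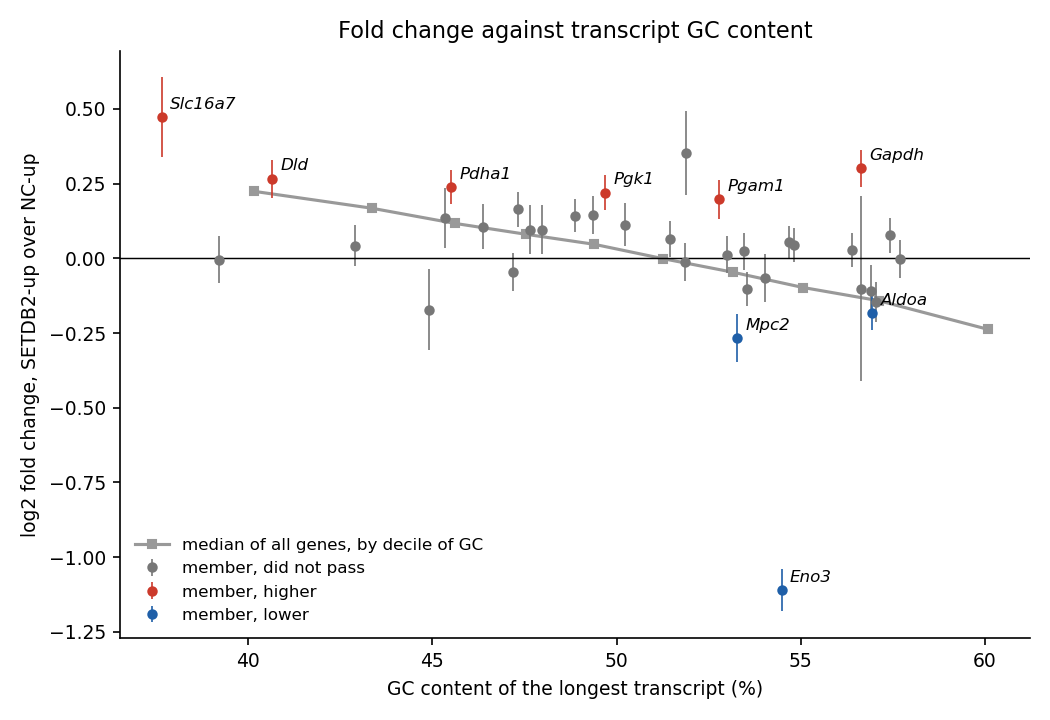
Log2 fold change (SETDB2-up over NC-up, bars are standard errors) against transcript GC content in percent, for the 36 genes as points. All genes are shown as the median of each decile of GC content (grey squares). GC content is that of the longest protein-coding transcript, or of the longest of any type where a gene has no coding one. The grey line falls from 0.22 at low GC to -0.24 at high GC. Gapdh lies above the line and Eno3 lies below it at -1.11.

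The second stage of glycolysis, from triose phosphates to pyruvate, held 4 of the 9 genes that passed. Gapdh (gene 14433, chromosome 6, 125161852 to 125166467, GRCm38), glyceraldehyde-3-phosphate dehydrogenase, which makes NADH at the start of this stage, had 23229, 23353 and 25288 normalised reads in NC-up against 29232, 27581 and 31819.9 in SETDB2-up. Each SETDB2-up library lay above each NC-up library. The means were 23956 ± 1154 and 29544 ± 2136 (SD, 3 libraries each), a log2 difference of 0.30 ± 0.06 (SE) at a limma adjusted p of 0.00265. Gapdh passed in all 17 alternatives, with an adjusted p of at most 0.0312, and its difference was 0.44 after GC correction. The mouse genome holds processed copies of Gapdh, and the labels do not say how reads shared with such copies were counted.

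Pgk1 (gene 18655, chromosome X, 106187100 to 106203699), phosphoglycerate kinase, which makes the first ATP of this stage, had 6357, 6430.0 and 6734 normalised reads in NC-up against 7615, 7034 and 8123 in SETDB2-up. The groups did not overlap. The log2 difference was 0.22 ± 0.06 (SE; adjusted p 0.0157 by limma) and 0.19 after GC correction (adjusted p 0.0398). The call was lost without NC-up library 1 (0.20, adjusted p 0.0578), NC-up library 2 (0.21, 0.0724) or SETDB2-up library 1 (0.22, 0.0626), with limma in each case. Pgam1 (gene 18648, chromosome 19, 41911871 to 41918665), phosphoglycerate mutase, had 4552, 4611 and 5027 against 4988, 5431 and 5866. SETDB2-up library 1 lay below NC-up library 3, so these groups overlapped. The log2 difference of Pgam1 was 0.20 ± 0.06 (SE, limma adjusted p 0.0420) and 0.24 after GC correction (0.0191). Without SETDB2-up libraries 1 and 2 it was 0.31 (0.0296). Its call was lost without NC-up library 1 (0.17), NC-up library 2 (0.18), SETDB2-up library 2 (0.19) or SETDB2-up library 3 (0.14), at limma adjusted p from 0.102 to 0.150.

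Eno3 (gene 13808, chromosome 11, 70653125 to 70662513, plus strand) encodes the beta subunit of enolase, the form known from skeletal and heart muscle. It had 1878, 1859 and 1684 normalised reads in the NC-up libraries against 822, 823 and 862 in the SETDB2-up libraries. The lowest NC-up library held nearly 2 times the reads of the highest SETDB2-up library. The means were 1807 ± 107 and 836 ± 22.9 (SD, 3 libraries each), a fall of 53.7%. The log2 difference was -1.11 ± 0.07 (SE, 95% interval -1.26 to -0.96, limma adjusted p 9.43e-09). After GC correction it was -1.03 (limma adjusted p 2.54e-08). Over the 17 alternatives it ranged from -1.16 to -1.03, and Eno3 passed in each of them.

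Beside that fall stand the values of a neighbour on the other strand. Eno3 shares 3675 of its 9389 bases with Pfn1, the actin-binding protein profilin, on the minus strand (70651844 to 70656799). Pfn1 had 4857, 4767 and 4720 normalised reads in NC-up against 3717, 3904 and 4123 in SETDB2-up, between 2.56 and 4.78 times the reads of Eno3. It fell as well, by 0.29 ± 0.06 (SE) on the log2 scale, with a limma adjusted p of 0.00205. In normalised reads the mean of Eno3 fell by 972 and that of Pfn1 by 867. The libraries were strand-specific per the labels' protocols, but no source used here gives the strand setting of the counter. Reads of the shared bases therefore cannot be told apart between the 2 genes. The alternative that left out genes under an opposite-strand gene with at least 4 times the reads kept Eno3. Its pass there therefore says nothing about this overlap. Of the 10 other tested genes within 100000 bp of Eno3, 0 rose and 1, Pfn1, fell. That neighbourhood was looked at because Eno3 had fallen.

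Muscle markers were low and partly moved the same way. Of 20 skeletal muscle markers 14 were in the table, and in limma 3 of them fell (Atp2a1, Acta1 and Myh4) while 0 rose (1 at an unadjusted p under 0.05), with a median log2 difference of -0.30. After GC correction 1 fell, Atp2a1 (limma adjusted p 0.0116), and 0 rose. Acta1 (0.0524) and Myh4 (0.0610) did not pass there. Acta1 passed in 12 of 17 alternatives, Myh4 in 10 of 17 and Atp2a1 in all 16 that tested it. The list did not move in 1 direction throughout: 4 of 14 members lay above 0, up to 0.98. In DESeq2 2 fell and 1, Neb, rose, and Myh4, whose groups overlapped, did not pass (0.138). Acta1, skeletal muscle actin, had 35.0, 40.2 and 39.3 normalised reads in NC-up against 10.4, 2.03 and 22.3 in SETDB2-up. The whole list summed to 2366 to 2421 in NC-up and 2348 to 2459 in SETDB2-up, and most of that was Pvalb and Neb. Without those 2 genes, a choice made after their values were seen, it summed to 538, 674 and 679 against 439, 392 and 468. The fast myosin light chain gene Mylpf was at 0 in NC-up library 1. Ckm, muscle creatine kinase, did not pass (log2 difference -0.67 ± 0.54 SE, limma adjusted p 0.427). The part of muscle RNA in the fall of Eno3 was not tested.

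The other enolase genes did not follow Eno3. Eno1, the widely expressed alpha subunit, had 15744, 16124 and 16604 normalised reads in NC-up against 16746, 15973 and 18485 in SETDB2-up, and the groups overlapped. Its log2 difference of 0.08 ± 0.06 (SE) did not pass in limma (adjusted p 0.409), but it was 0.23 after GC correction and passed there (0.00748). Eno2, the gamma subunit known from neurons, had 15286, 15794 and 16449.9 against 15424, 16348 and 17272. It did not pass, at 0.04 ± 0.06 (SE, limma adjusted p 0.641). Per kilobase of the longest protein-coding transcript, Eno3 made up 8.32%, 8.03% and 7.11% of the enolase reads in NC-up. In SETDB2-up its share was 3.67%, 3.69% and 3.48%. The share of Eno1 was 53.9% ± 0.158 in NC-up and 56.9% ± 1.37 in SETDB2-up (SD), and that of Eno2 was 38.3% and 39.5% with overlap. The sum of the 3 genes per kilobase was 14437, 14794 and 15154 in NC-up against 14305, 14255 and 15850 in SETDB2-up. SETDB2-up libraries 1 and 2 lay below every NC-up library, and SETDB2-up library 3 lay above them all. The means were 14795 ± 358 in NC-up and 14804 ± 907 in SETDB2-up (SD, 3 libraries each). They differed by less than their spread, and their closeness rests on SETDB2-up library 3.

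Pkm, pyruvate kinase, which closes this stage, was among the most abundant of the 36 genes and did not pass. It had 38394, 39967 and 41924 normalised reads in NC-up against 39231, 37274 and 43684 in SETDB2-up. The groups overlapped fully, and the 95% interval of the log2 difference ran from -0.14 to 0.13. After GC correction the difference was 0.16 (limma adjusted p 0.0744), and it passed only where the replicate number was also a block (0.000682).

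**Figure D3:**
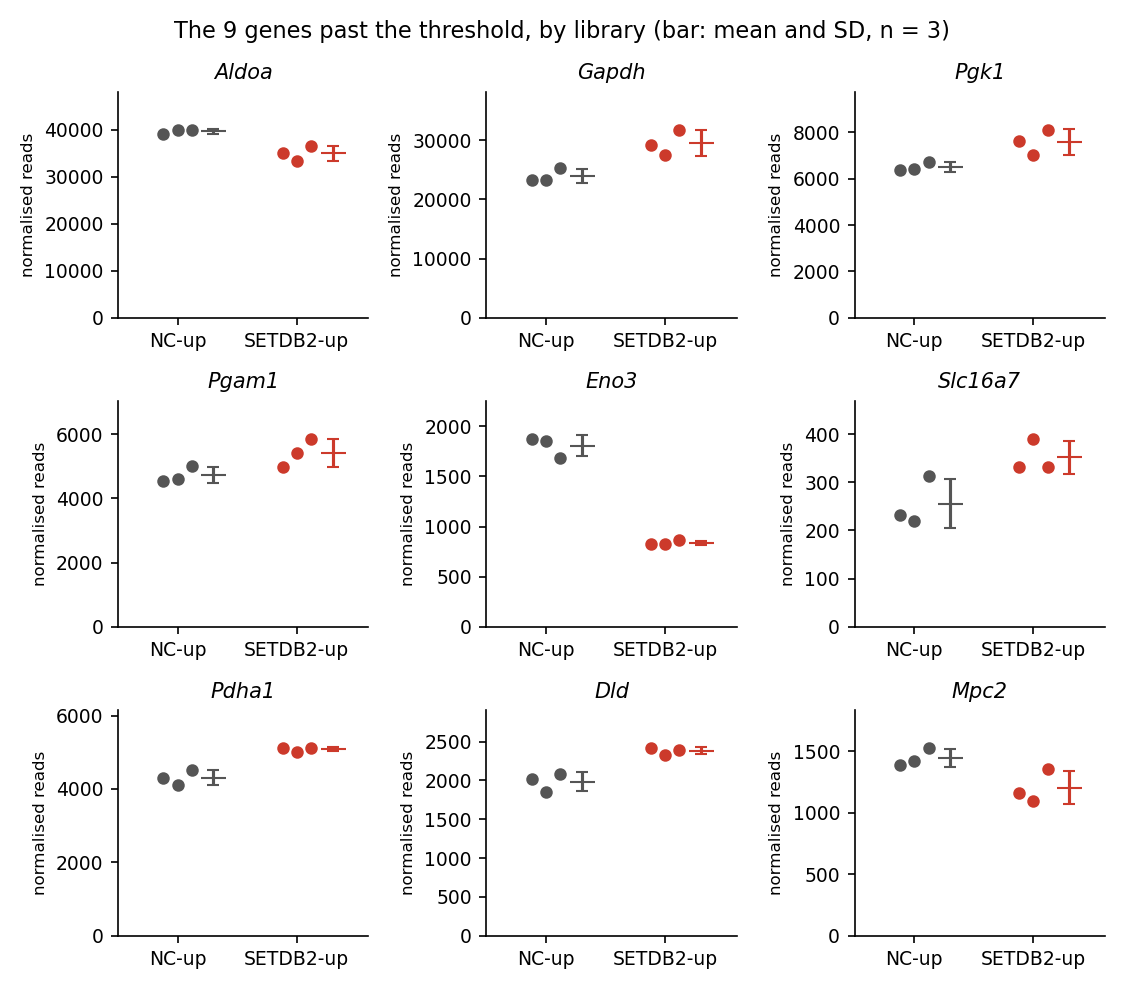
Normalised reads of the 9 genes that passed the test, 1 panel per gene, with each library as a point and the mean and SD of the 3 libraries beside them. The y axis starts at 0 in each panel. Eno3 falls from between 1684 and 1878 to between 822 and 862, whereas the 8 other genes move by a small part of their level, and Pgam1 shows overlap between the groups.

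The promoters of the 4 genes of this stage that passed are shown because 3 of them rose together while Eno3 fell. These sequences are from RefSeq (GRCm38.p6, the build of the table's coordinates), each the 250 bases before the annotated start, written 5′ to 3′ on the strand of the gene. Capitals mark 2 kinds of short motif: the core of the hypoxia response element, ACGTG or GCGTG, and the box CACCC that Krüppel-like factors such as KLF4 are known to bind, each on either strand. Eno3 is at chr11:70656926-70657175 (plus), Gapdh at chr6:125165774-125166023 (minus), Pgk1 at chrX:106186850-106187099 (plus) and Pgam1 at chr19:41911621-41911870 (plus).
Eno3: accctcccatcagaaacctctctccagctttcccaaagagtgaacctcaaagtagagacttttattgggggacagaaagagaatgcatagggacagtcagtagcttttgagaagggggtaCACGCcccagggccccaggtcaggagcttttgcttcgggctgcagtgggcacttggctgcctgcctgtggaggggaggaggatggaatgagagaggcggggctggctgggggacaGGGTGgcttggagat
Gapdh: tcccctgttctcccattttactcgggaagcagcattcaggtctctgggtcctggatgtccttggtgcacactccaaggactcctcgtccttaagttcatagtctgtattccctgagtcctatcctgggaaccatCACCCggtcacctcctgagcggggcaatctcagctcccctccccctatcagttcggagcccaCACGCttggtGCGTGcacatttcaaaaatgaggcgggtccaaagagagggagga
Pgk1: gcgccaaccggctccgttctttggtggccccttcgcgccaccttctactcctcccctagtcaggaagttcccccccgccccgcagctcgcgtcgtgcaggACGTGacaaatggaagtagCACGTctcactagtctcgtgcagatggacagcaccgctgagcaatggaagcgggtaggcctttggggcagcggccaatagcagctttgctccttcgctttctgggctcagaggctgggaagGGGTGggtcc
Pgam1: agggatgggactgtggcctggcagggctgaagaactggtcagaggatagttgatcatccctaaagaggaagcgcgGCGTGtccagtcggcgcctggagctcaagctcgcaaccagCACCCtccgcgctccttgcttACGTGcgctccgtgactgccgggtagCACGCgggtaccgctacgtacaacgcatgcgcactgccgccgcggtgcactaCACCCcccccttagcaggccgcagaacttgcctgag
The RefSeq start of Eno3, at 70657176, lies beyond the end of Pfn1 at 70656799, so the shared bases lie upstream of that start, whereas the table's Eno3 begins at 70653125. The Gapdh window lies inside the span the table gives for Gapdh. Eno3 held 1 hypoxia core and 1 CACCC box, Gapdh 2 and 1, Pgk1 2 and 1, and Pgam1 3 and 2. Those of Pgk1 nearest the start lay 131 bases upstream for the hypoxia core and 10 for the box. Over all 32851 RefSeq windows of the same length, 38.6% held a hypoxia core and 52.0% a CACCC box. Of 50 windows of 33 matched members, 38 held a hypoxia core and 32 a CACCC box. The member windows were richer in GC, at a median of 61.6% against 52.4%. The E-box CACGTG, which contains a hypoxia core, was in 6 of 50 member windows and in 6.02% of all. These motifs were chosen with results of these data known, and a match is a description of the letters only.

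The first stage, from glucose to triose phosphates, held 1 of the 9 genes that passed. Aldoa (gene 11674, chromosome 7, 126795234 to 126800994), aldolase A, which splits fructose 1,6-bisphosphate, had the highest level per kilobase of the 36 genes. It had 39098, 40056 and 40037 normalised reads in NC-up against 35009.7, 33436 and 36621 in SETDB2-up, without overlap. The log2 difference was -0.18 ± 0.06 (SE; adjusted p 0.0294 in limma). After GC correction it was -0.04 (0.680), and without SETDB2-up libraries 1 and 2 it was -0.12 (0.394). The call was also lost without NC-up library 1 (-0.19), 2 (-0.18) or 3 (-0.18) or SETDB2-up library 1 (-0.18) or 2 (-0.15), at limma adjusted p from 0.0644 to 0.136. Aldoc, the aldolase known from brain and glia, had 3554, 3747 and 3786 against 3803, 3331 and 3883 and did not pass (-0.01 ± 0.06 SE, limma adjusted p 0.922). Aldoa held 95.1% of the aldolase reads per kilobase in NC-up and 94.5% in SETDB2-up, a small difference without overlap.

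The other 9 genes of this stage did not pass, with log2 differences from -0.15 (Pfkl) to 0.35 (Hk2). Hk2, the inducible hexokinase, had 143, 159 and 186 normalised reads in NC-up against 196, 204 and 220.4 in SETDB2-up, the largest difference of the stage but with a wide error (0.35 ± 0.14 SE, limma adjusted p 0.0948). Hk1, which supplied over 98.1% of hexokinase reads per kilobase in every library, was at 0.03 ± 0.06 (SE). Phosphofructokinase, the committing step of glycolysis, has 3 subunit genes, and Pfkp had 8213, 8812 and 8312 against 9320.3, 8966 and 9682. Pfkp did not pass in limma (0.14 ± 0.05 SE, adjusted p 0.0822) but passed with the replicate number as a block (0.0248) and in DESeq2 (0.0448). Its share of phosphofructokinase reads per kilobase was 41.8% ± 0.923 in NC-up and 44.1% ± 0.904 in SETDB2-up, and that of Pfkl, the liver type, was 13.6% ± 0.466 and 11.8% ± 0.616 (SD), both without overlap, while the share of Pfkm, the muscle type, overlapped. Without SETDB2-up library 3, Pfkl (-0.20, limma adjusted p 0.0318) and Gpi1, glucose-6-phosphate isomerase (-0.16, 0.0321), passed as lower. Tpi1, triose phosphate isomerase, and the regulatory enzymes Pfkfb2 and Pfkfb3 had log2 differences of 0.02, 0.14 and 0.11.

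**Figure D4:**
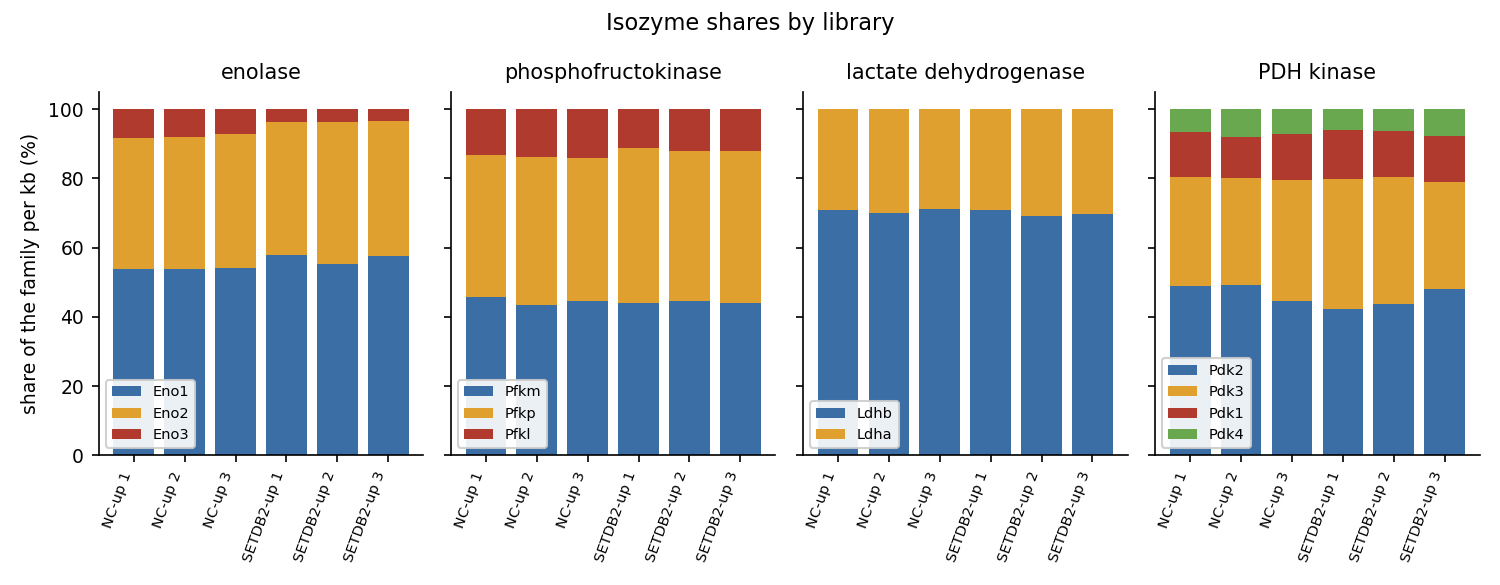
Share of each isozyme in the summed reads per kilobase of its family, in percent, for each of the 6 libraries, as stacked bars for enolase, phosphofructokinase, lactate dehydrogenase and the pyruvate dehydrogenase kinases. The Eno3 share falls from 7.11% to 8.32% in NC-up to 3.48% to 3.69% in SETDB2-up, while the shares of Ldha and Ldhb overlap between the groups.

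Neither lactate dehydrogenase gene passed, and their balance did not differ beyond its spread. Ldha, the subunit of the muscle-type tetramer, had 6172, 6272 and 6547 normalised reads in NC-up against 6345, 6354 and 7207 in SETDB2-up. Ldhb, the subunit of the heart-type tetramer, had 10852, 10469 and 11663 against 11120.5, 10251 and 11902. The 95% interval of the log2 difference ran from -0.06 to 0.19 for Ldha and from -0.12 to 0.14 for Ldhb. Per kilobase, Ldha made up 29.3% ± 0.716 of the lactate dehydrogenase reads in NC-up and 30.1% ± 0.895 in SETDB2-up (SD, 3 libraries each). Ldhb was thus the more abundant of the pair in all 6 libraries.

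Among the carriers, Slc16a7 alone passed. Slc16a7 (gene 20503, chromosome 10, 125219270 to 125389586) encodes MCT2, the monocarboxylate transporter of high affinity known from neurons. It had 232, 220.3 and 314 normalised reads in NC-up against 332, 391 and 331 in SETDB2-up. The groups did not overlap, although NC-up library 3 came close to SETDB2-up libraries 1 and 3. The log2 difference was 0.47 ± 0.13 (SE; limma, adjusted p 0.0200). Slc16a7 has the lowest GC content of the 36 genes, and after GC correction the difference was 0.23 (0.352). The call was also lost without NC-up library 1 (0.41, 0.0550), NC-up library 2 (0.38, 0.0982), SETDB2-up library 1 (0.51, 0.0649), SETDB2-up library 2 (0.39, 0.109) or both of the latter (0.39, 0.435), all limma adjusted p.

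Slc16a1, which encodes the widely expressed carrier MCT1, had 1441, 1495 and 1478 normalised reads in NC-up against 1544, 1407 and 1603 in SETDB2-up and did not pass. Slc16a3, which encodes MCT4, had 30.7, 69.9 and 76.0 against 40.8, 67.1 and 48.2, the lowest level per kilobase of the 36 genes. Its reads are uncertain, because it shares 1292 bases with Csnk1d on the opposite strand, which has 72.8 to 173 times its reads. Of the glucose transporters, Slc2a1 (GLUT1, of the blood-tissue barrier and glia) was at -0.07 ± 0.08 (SE) and Slc2a3 (GLUT3, of neurons) at 0.15 ± 0.06, and neither passed in limma (adjusted p 0.625 and 0.125). Slc2a3 nevertheless showed no overlap, with 1432, 1462 and 1449 against 1587, 1653 and 1565.

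Entry of pyruvate into mitochondria needs both subunits of its carrier. Mpc2 (gene 70456, chromosome 1, 165461260 to 165481218) had 1386, 1422 and 1531 normalised reads in NC-up against 1163, 1098 and 1356 in SETDB2-up. The groups did not overlap, and SETDB2-up library 3 lay near the NC-up libraries. The log2 difference was -0.27 ± 0.08 (SE, adjusted p 0.0263 with limma). It was -0.21 after GC correction (0.0973) and -0.09 without SETDB2-up libraries 1 and 2 (0.757). The call was also lost without NC-up library 2 (-0.28) or 3 (-0.22) or SETDB2-up library 1 (-0.24) or 2 (-0.20), at limma adjusted p from 0.0653 to 0.146. Mpc1, its partner, had 1248, 990.3 and 1149 against 1198, 1141 and 1268 and did not pass (0.10 ± 0.08 SE, limma adjusted p 0.462). The share of Mpc2 in the carrier reads per kilobase went from 51.0%, 57.4% and 55.6% in NC-up to 47.6%, 47.4% and 50.1% in SETDB2-up.

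In the pyruvate dehydrogenase complex, which turns pyruvate into acetyl-CoA, 2 of 4 genes rose. Pdha1 (gene 18597, chromosome X, 160122219 to 160138430), the alpha subunit of E1 and the one that kinases phosphorylate, had 4299, 4113 and 4513 normalised reads in NC-up against 5108, 5013 and 5126 in SETDB2-up. Dld (gene 13382, chromosome 12, 31331562 to 31351471), the E3 subunit that other dehydrogenase complexes also use, had 2015, 1845 and 2084 against 2422, 2331 and 2389.7. Neither gene showed overlap between the groups, and the SETDB2-up libraries lay close together. Pdha1 overlaps Map3k15 on the opposite strand, so the strand uncertainty named for Eno3 applies to it too. Pdha1 differed by 0.24 ± 0.06 (SE; limma, adjusted p 0.00672) and Dld by 0.27 ± 0.06 (0.00750) on the log2 scale. After GC correction these were 0.12 (0.175) and 0.06 (0.627). Both calls were also lost without NC-up library 2 (0.21 at 0.0524 and 0.22 at 0.0551 in limma) and without SETDB2-up libraries 1 and 2, where the differences were as large (0.25 and 0.27) but the adjusted p was 0.0863 and 0.126.

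Pdhb, the beta subunit of E1, had 2910.1, 2913 and 2958 normalised reads in NC-up against 3372, 3089 and 3386 in SETDB2-up, without overlap. It did not pass in limma (0.16 ± 0.06 SE, adjusted p 0.0617), but did with the replicate number as a block (0.0240) and in DESeq2 (0.0373). Dlat, the E2 core, had 2463, 2676 and 2834 against 2511, 2532 and 2679 and did not pass (-0.04 ± 0.06 SE, limma adjusted p 0.682). The 4 subunits thus did not all move with Pdha1. Of the genes that set the activity of the complex, the kinases Pdk1, Pdk2, Pdk3 and Pdk4 and the phosphatase Pdp1, 0 of 5 passed in limma, edgeR or DESeq2, with log2 differences from -0.17 (Pdk4) to 0.11 (Pdk1). At an unadjusted p under 0.05 in limma the count was 0 as well, and 2 were lower at that level after GC correction. Pdk2 held the largest share of kinase reads per kilobase, 47.7% ± 2.57 in NC-up and 44.7% ± 3.04 in SETDB2-up (SD, 3 libraries each), with overlap. Pdk1 showed no overlap, with 752, 725 and 724 normalised reads against 782, 789 and 797.

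Genes around the pathway were read from lists that were drawn up with earlier results of these data known, and their counts stand beside 7.71% of all genes higher and 8.71% lower. Among 35 other glycolysis, gluconeogenesis and transport genes 4 rose and 0 fell. Those that rose included Pdpr (a regulatory subunit of pyruvate dehydrogenase phosphatase, log2 difference 0.31), Pck1 (the cytosolic enzyme of gluconeogenesis) and, next by p, Emb (a chaperone of monocarboxylate transporters, 0.17). In SETDB2-up libraries 1, 2 and 3 Pck1 had 62.7, 111 and 1.78 normalised reads, against at most 3.83 in NC-up, so that this gene of liver was high in the 2 libraries with liver transcripts. After GC correction Pdpr still passed. The count of 0 lower was also 0 at an unadjusted p under 0.05 in limma and in edgeR and DESeq2.

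In the list for the tricarboxylic acid cycle 4 of 21 genes rose in limma and 0 fell (1 at an unadjusted p under 0.05, 0 in edgeR and 1 in DESeq2). Mdh1, 1 of the 4, acts outside the mitochondrial cycle and is also in the list of shuttles, so it is counted in both. Those that rose were Sucla2 (succinate-CoA ligase, 0.25), Mdh1 (cytosolic malate dehydrogenase, 0.21), Idh3a (isocitrate dehydrogenase, 0.20) and, next by p, Fh1 (fumarate hydratase, 0.21). Of 24 glycogen genes 3 rose, Pgm2l1 (0.25), Ugp2 (0.23) and Phkb (0.28), and 0 fell (2 at an unadjusted p under 0.05, 0 in edgeR and in DESeq2). Of 11 pentose phosphate genes Pgls (-0.33) and Tkt (-0.18) fell and Prps2 (0.30) rose. Of 11 genes of the malate-aspartate and glycerol phosphate shuttles Mdh1, already counted above, rose and Gpd1 (-0.24) fell. After GC correction 0 genes of these 4 lists passed in limma, and at an unadjusted p under 0.05 there were 2 higher and 1 lower in the tricarboxylic acid cycle, 5 and 1 in glycogen, 2 and 1 in pentose phosphate and 2 and 0 in the shuttles. The correction turned the sign of Pgls, from -0.33 to 0.09, and brought Ugp2 to -0.00074. Of 30 regulators and targets of hypoxia and glucose sensing 4 rose and 3 fell, led by Vegfa, the vascular growth factor (-0.31), Prkaa1, a catalytic subunit of AMP kinase (0.25), and Esrra, an orphan nuclear receptor (-0.29). Of these Vegfa alone passed after GC correction (-0.31, limma adjusted p 0.0191).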

How the data were processed

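Bulk mRNA sequencing of 6 mouse trigeminal ganglion libraries was re-analysed, 3 NC-up and 3 SETDB2-up, grouped by their titles. TRIzol extraction, selection on poly-T beads, strand-specific library preparation and paired-end NovaSeq sequencing are stated per the labels' protocols. FastQC, HISAT2 and GRCm38 are named per the submitters' processing notes. No source used here gives the counter, its strand setting or the annotation. Besides Eno3, Slc16a3 and Pdha1, the members Hk1, Pfkm, Pfkp, Pfkfb2, Tpi1, Pkm and Mpc1 overlap a listed gene on the opposite strand. Each deposited value is a normalised signal, a read count that the authors divided by 1 factor per library. This follows from the values, of which 100% were whole multiples of a library's own step, to within 0.001 read. The smallest total of a gene over the 6 libraries is 33 reads.

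The test was limma (3.58.1, R 4.3.3) with a mean-variance trend on log2(value + 1), over the 16387 genes that reached a value of 1 in 3 or more libraries (28 removed), with Benjamini-Hochberg adjustment and a threshold of 0.05. Fold changes are on that scale and understate changes of low genes. Simulated data for this comparison held 16387 genes, with 50 changed per fold, all with a mean of at least 50 normalised reads. There limma found 48% of the changes of 1.25-fold, 74% at 1.5-fold, 96% at 2-fold and 100% at 4-fold. Of 168 calls, 9 (5.36%) were false. The simulation had no GC trend and no liver transcripts, and far fewer calls than the 2690 of these data. Its shares therefore do not carry over to these data. Within groups, pairs of libraries gave a chi-square of 3.97 to 9.93 per degree of freedom, above counting noise. Alternatives were a pseudocount of 0.1, no filter, edgeR (4.0.16) with TMM or RLE factors and DESeq2 (1.42.0) on recovered reads, TMM scaling, leaving out libraries, the replicate number as a block, a loess correction for transcript GC content (span 0.5), the last 2 together, and leaving out genes under an opposite-strand gene with at least 4 times the reads. EdgeR with TMM factors called 2680 genes (16.4%). Transcript GC content and length came from GENCODE M21, matched for 94.7% of genes and all 36 members. Both GC content and levels per kilobase use the longest protein-coding transcript, or the longest of any type where a gene has no coding one.

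The members and gene lists were chosen with earlier results of these data known. All members are named. Those that passed are given in full, others where an isozyme or partner passed or where they are among the 5 highest per kilobase, and up to 3 genes of each related list by smallest p. A gene that this rule selects is not reported here. Library values of Hk2, Pfkp, Slc2a3, Pdhb and Pdk1 were added after their values were seen.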

Additional observations from a re-analysis of the deposited data

How the results depend on the processing

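Over the 17 alternatives, Eno3 and Gapdh passed in each. Of the other 7 genes that passed, Pdha1 and Pgk1 lost the call in 3, Dld and Pgam1 in 4, Mpc2 in 6, Slc16a7 in 7 and Aldoa in 8, and none changed direction. The values of single genes kept direction and call in 490 of 576 cases. Those cases do not include the alternative that leaves out genes under an opposite-strand gene. With 3 libraries a group, small changes can be missed. On simulated data the test recovered 48% of 1.25-fold changes. Those data had no GC trend and far fewer calls, so that share does not carry over to these libraries.

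Leaving out 1 library gave 414 to 1528 higher and 668 to 1807 lower genes (1263 and 1427 with all libraries), and 1 to 6 higher and 1 to 5 lower members. The lowest count of higher members, Gapdh alone, came without NC-up library 2, and the highest count of lower members came without SETDB2-up library 3. Without SETDB2-up libraries 1 and 2, which leaves a single library assumed to vary like NC-up, 146 genes were higher and 301 lower, with 3 higher members (Gapdh, Pgk1, Pgam1) and 1 lower (Eno3). GC correction gave 278 higher and 555 lower genes, and with the replicate block 715 higher, and 1 lower member without the block.

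With the replicate number as a block, 1695 genes were higher and 1923 lower, and 8 members higher (Pdhb and Pfkp added) and 3 lower. Whether the numbers pair the libraries depends on the genes used. Deviations of same-numbered libraries correlated at 0.1001, 0.1125 and 0.1155 over the 12174 genes above a level of 100, at 0.0383, 0.0359 and 0.0484 over all tested genes, and at 0.1706, 0.3110 and 0.2202 over the 4889 genes with a mean above 1000. The first of these sets was computed in the same step as the calls of the blocked fit, and the other 2 sets were chosen after those calls had been seen. The pairing is therefore not settled here and the unblocked fit is the one reported. With GC correction and the block together, 9 members were higher (Eno1, Eno2, Gapdh, Hk1, Pdha1, Pfkm, Pgam1, Pgk1 and Pkm) and 2 lower (Eno3 and Mpc2).

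The 40 changes of direction all concern genes that did not pass. Without SETDB2-up libraries 1 and 2 the log2 difference became 0.00058 for Gpi1, -0.037 for Pfkfb2, 0.072 for Aldoc, 0.12 for Pkm, 0.091 for Slc2a1, 0.041 for Pdk2, -0.041 for Pdk3, 0.089 for Pdk4, 0.032 for Pdp1 and 0.014 for Dlat. After GC correction, with and without the block, it became 0.0091 for Aldoc, 0.16 for Pkm, 0.0084 for Slc2a1, -0.12 for Slc16a1, 0.035 for Slc16a3 and 0.034 for Pdk2. Leaving out 1 library moved Hk1 between -0.0043 and 0.082, Aldoc between -0.054 and 0.057, Tpi1 between -0.038 and 0.080, Pkm between -0.067 and 0.047, Ldhb between -0.041 and 0.067, Slc16a3 between -0.51 and 0.13, Pdp1 between -0.042 and 0.025 and Dlat between -0.098 and 0.0030. The cause of these changes was not tested.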

Other observations

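Gapdh, Pgk1, Pkm and Tpi1 are often used as reference genes, so levels of 6 other genes were set against each of them, a comparison chosen after the values of Gapdh had been seen. The 24 comparisons are differences of log2(value + 1) between a gene and its reference in the same library. An exact 2-sided permutation test with 3 libraries a group cannot give a p under 0.1, and the smallest value adjusted over the 24 was 0.133, so none can pass. In 18 of 24 comparisons the groups did not overlap, where single genes showed no overlap in 33.3% of all genes. The 24 comparisons reuse the same 6 genes and the same references, so they are not separate results. Setdb2, Klf4, Ide, Calca, Actb, Gapdh and Pgk1 showed no overlap on their own, whereas Calcb, Pkm and Tpi1 overlapped. The count of 18 therefore adds little to the values of the single genes.

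On its own, Calca, which encodes alpha-CGRP, rose by 0.26 on the log2 scale (limma adjusted p 0.00335), without overlap, and passed in all 17 alternatives. Gapdh and Pgk1 rose too. Calca differed by -0.05 between SETDB2-up and NC-up when set against Gapdh (exact p 0.6, adjusted 0.655) and by 0.04 against Pgk1 (exact p 0.5, adjusted 0.571), and its groups overlapped in both. Against Pkm it was 0.26 higher and against Tpi1 0.23 higher, without overlap (exact p 0.1, adjusted 0.133 in both). Calcb, which encodes beta-CGRP, was at -0.33 against Gapdh and -0.24 against Pgk1, without overlap. It was at -0.02 against Pkm and -0.05 against Tpi1, with overlap. Each difference against a reference is the gene's own difference less that of the reference. These values therefore follow from those of the single genes and are not separate results. On its own Calcb was at -0.02 with overlap and did not pass (limma adjusted p 0.857). Actb on its own was at -0.16 without overlap (limma adjusted p 0.0470) and passed in 11 of 17 alternatives. Actb differed by -0.46 against Gapdh and -0.38 against Pgk1 without overlap. Against Pkm it was at -0.15 and against Tpi1 at -0.18, with overlap (exact p 0.2, adjusted 0.24, in both). Setdb2 (0.35 to 0.66), Klf4 (-1.01 to -0.70) and Ide (-1.10 to -0.79) kept 1 direction and showed no overlap against all 4 references.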
